A study of Drosophila melanogaster with 18 samples.

Results

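The level of S9.6 signal in Drosophila S2 cells with a knockdown of hrp36 was compared with that of control cells, both without RNase H. S9.6 is an antibody against RNA-DNA hybrids, and DRIP-seq sequences the DNA fragments that it recovers. The comparison takes in 4 of the 18 libraries of the series: 2 labelled RNH- from cells labelled hrp36 and 2 labelled RNH- from cells labelled LacZ. RNH- and RNH+ are read here as material without and with RNase H. LacZ is a bacterial gene that flies lack, and cells labelled with it are taken as the control of the knockdown. All groups share the S2 line, which the labels also call a primary culture of late stage, and in each the genomic DNA, purified with phenol-chloroform, was broken up by sonication. The labels give no reagent, duration or level of the knockdown, and they do not say whether the 2 libraries of a group came from separate cultures.

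An RNA-DNA hybrid forms when an RNA pairs with 1 strand of the DNA, most often the template that it was copied from, and leaves the other strand single as an R-loop. RNase H degrades the RNA strand of such hybrids, so material treated with it is the usual control for the antibody. The protein hrp36, encoded by Hrb87F, is an hnRNP of the A/B family: it coats nascent transcripts and takes part in splicing and in nuclear RNA bodies. Heterochromatin, which is rich in transposons and satellite repeats, also makes RNA that can stay bound to chromatin.

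The authors deposited 3 tables, whose region identifiers name the hrp48, LacZ or hrp36 cells together with the mark that the level columns use for RNH-, with 7735, 6477 and 2980 regions. Each gives 1 level per group and region, the authors' mean on a log2 scale of normalised counts. Values of single libraries were not analysed here, so the difference between the groups has no replicate error of its own and no test. As a yardstick of the spread, the authors' standard error for the RNase H fold change of the same region is used, a contrast that also sets 2 libraries against 2. Its median was 0.38 log2 units in the hrp48 table. In that table the contrast is RNH+ over RNH- in hrp48 cells, so neither of the compared groups is part of it. It is thus not an error of the hrp36 minus LacZ difference. Depth per library is unknown. The hrp48 table comes first, because its regions were chosen, as far as these identifiers tell, on neither of the compared groups. A region is counted as higher or lower where the difference, hrp36 minus LacZ, is more than 1 log2 unit (2-fold). Positions are on the dm3 build.

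Over the 7735 regions of the hrp48 table, the S9.6 level was mostly higher in hrp36 cells. The median difference was 0.60 log2 units, or 1.52-fold, with quartiles of 0.18 and 0.98. In all, 83.3% of the regions lay above 0. There were 1814 higher regions, 23.5% of the table, and 1 lower region, 0.0129%. Set against the authors' standard error, 2973 regions (38.4%) were higher by more than 2 times that error and 16 (0.207%) were lower. The medians of the levels themselves were 6.13 in LacZ and 6.49 in hrp36 cells.

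The difference depended on where regions lay. On Uextra, which in dm3 joins sequence that could not be placed, the median difference was 0.71, and 1608 of 5707 regions were higher and 0 lower. On U, the other collection of unplaced scaffolds, it was 0.64, with 127 of 606 higher and 0 lower. On the chromosome arms the median was -0.15, with quartiles of -0.34 and 0.39, and 65 of 1099 regions were higher and 1 lower. The share of higher regions was thus 28.2% on Uextra and 5.91% on the arms. In the hrp48 table, mapped heterochromatin had medians between those of the arms and the unplaced scaffolds. They were 0.12 on the Het scaffolds and 0.14 in the pericentromeric parts of the arms. The shares of higher regions in mapped heterochromatin were below that of the arms, with 12 of 234 (5.13%) and 2 of 81 (2.47%). The 6 regions of chromosome 4, a small chromosome that is largely heterochromatic, ran close to 0, with a median of -0.01.

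The arms resembled one another. Their medians were 0.01 on 2L (247 regions), -0.15 on 2R (232), -0.20 on 3L (238), -0.18 on 3R (186) and -0.15 on X (196). The quartile range of each arm contained the medians of the other 4. Among the Het scaffolds with more than 10 regions the medians were 0.08 on 2RHet, 0.10 on 3LHet and 0.12 on 3RHet. The 7 regions of YHet, from the mostly repetitive Y chromosome, had the highest median of a named scaffold, 0.62, with 3 of them higher.

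**Figure D1:**
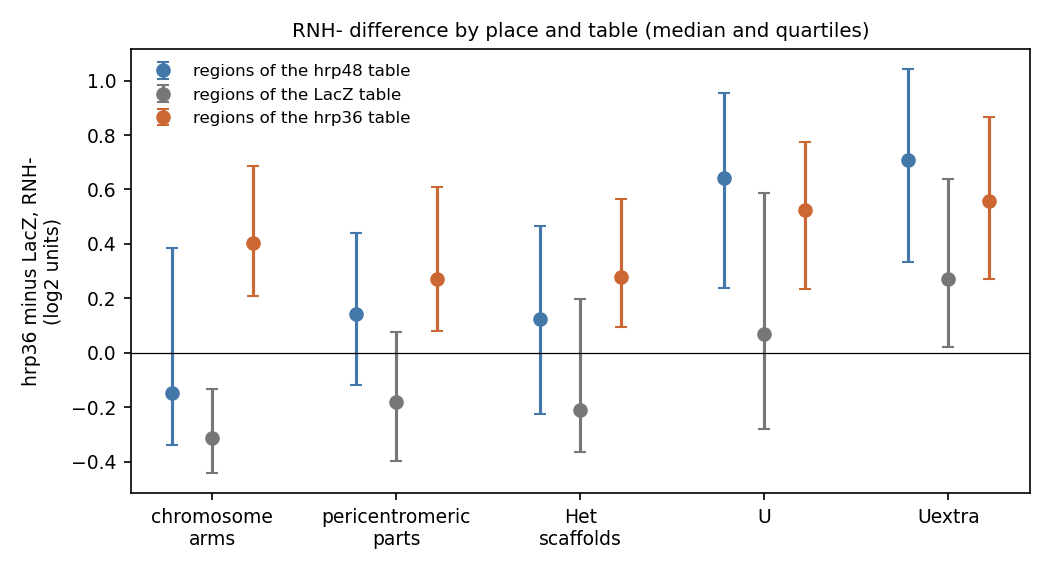
Median difference in S9.6 level, hrp36 minus LacZ in RNH- libraries (log2 units, y axis), by place in the genome (x axis), for the regions of each of the 3 tables. Points are medians over regions and bars run from the lower to the upper quartile. Regions of the LacZ table lie lowest and those of the hrp36 table highest on the arms, with medians of -0.31 and 0.40.

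The choice of regions moved the result. In the LacZ table, whose identifiers point to a choice on LacZ cells, the median difference was -0.14, with 264 regions (4.08%) higher and 7 (0.108%) lower. In the hrp36 table it was 0.50, with 464 regions (15.6%) higher and 0 lower, a share of 0%. A choice on 1 of the compared groups favours regions that were high in that group. On the arms the medians were -0.31 in the LacZ, -0.15 in the hrp48 and 0.40 in the hrp36 table, so the sign on the arms depended on the table. On Uextra the medians were 0.27, 0.71 and 0.56 in the same order, above 0 in all 3 tables. For the Het scaffolds they were -0.21, 0.12 and 0.28, and for the pericentromeric parts -0.18, 0.14 and 0.27. The sign in mapped heterochromatin thus also depended on the table, and in the hrp36 table both medians lay below that of the arms. Arm regions numbered 3441 in the LacZ and 470 in the hrp36 list, so the tables also differ in makeup.

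The same dependence was seen inside the hrp48 table. Its 2126 regions that overlapped a region of both other tables had a median difference of 0.47. Of them, 255 (12%) were higher, against 23.5% of the whole table. The 1124 that overlapped a LacZ region only had a median of -0.21 with 2 (0.178%) higher. The 424 that overlapped an hrp36 region only had 0.78 with 157 (37%) higher. A listing for only 1 of the compared groups favours a difference towards that group, so the signs of these 2 medians follow in part from the lists. The 4061 regions found in neither of the other tables had a median of 0.83, and 1400 of them (34.5%) were higher. Their median RNH- level was 4.65 in LacZ and 6.85 in hrp48 cells. Of these 4061 regions, 3977 lay on U and Uextra, where their median was 0.84. The 60 on the arms had a median of -0.25 and 0 higher regions.

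In RNH+ libraries, which are separate libraries of the same cell groups, the difference between hrp36 and LacZ cells was small. Its median over the hrp48 table was -0.05, with quartiles of -0.23 and 0.13. Only 19 regions (0.246%) were higher and 28 (0.362%) lower by more than 1 log2 unit, against 1814 and 1 in RNH- libraries. None of the 1814 higher regions was also higher with RNH+. Their RNH+ differences ran from -1.57 to 0.92 with a median of -0.09, and 37.2% of them were above 0, against 42.4% of all regions. The higher arm regions had a median RNH+ difference of -0.29. Of the 65, 10 (15.4%) lay above 0, against 42.9% of all arm regions. These 65 are not all independent, since 39 of them share level profiles, as described below. Across the 7735 regions the RNH- and RNH+ differences had a Pearson's r of -0.16 and a Spearman's rho of -0.17, a description over regions that can share repeat sequence. The 2 differences rest on different libraries but were deposited in the same table. In both cell groups the median level was lower without RNase H than with it. Over all regions it was 6.13 with RNH- and 6.60 with RNH+ in LacZ cells, and 6.49 and 6.53 in hrp36 cells. On Uextra it was 5.09 and 6.31 in LacZ cells, and 5.94 and 6.24 in hrp36 cells. Whether the hrp36 difference is signal that RNase H removes was not tested.

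**Figure D2:**
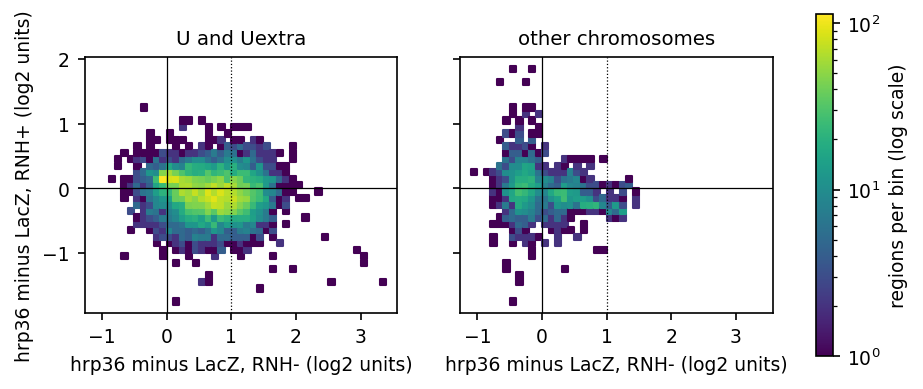
Difference in S9.6 level, hrp36 minus LacZ, in RNH- libraries (x axis, log2 units) against that in RNH+ libraries (y axis, log2 units) for the regions of the hrp48 table, on U and Uextra (left) and on all other chromosomes (right). Colour gives the number of regions per square of 0.1 by 0.1 on a log scale, and the dotted line marks 1 log2 unit. The cloud extends to the right, past 1, far more than it extends upwards, and no square is past 1 on both axes.

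On U and Uextra, the regions with an excess of hrp48 RNH- signal had the larger hrp36 difference. At 3748 unplaced regions the hrp48 RNH- level exceeded that of LacZ by more than 1 log2 unit. LacZ cells had a median RNH- level of 4.59 there, hrp36 cells 5.50 and hrp48 cells 6.87. With RNH+ the LacZ median at these regions was 6.06, the hrp36 median 5.97 and the hrp48 median 5.70. The LacZ and hrp36 medians were thus lower without RNase H than with it, and the hrp48 median was higher. The median hrp36 minus LacZ difference there was 0.86, and 1379 regions (36.8%) were higher, against 27.5% of all unplaced regions. At the other 2565 unplaced regions the median difference was 0.41, with 356 (13.9%) higher. For LacZ the median level at these others was 8.33 with RNH- and 8.15 with RNH+. For hrp36 it was 8.91 and 8.06, and for hrp48 8.18 and 8.08. The division by hrp48 excess uses the LacZ level, so a low LacZ level favours both differences. A division by the authors' call of RNase H response in hrp48 cells does not use the levels of the compared groups directly, but its classes also differed in LacZ level. The authors' deposited table calls 3388 unplaced regions lower with RNH+ in hrp48 cells (adjusted p under 0.05). Over these the median hrp36 minus LacZ difference was 0.89, with 1326 (39.1%) higher in hrp36 cells. It was 0.44 over the 2710 regions without a call, with 407 (15%) higher. Over the 215 called higher with RNH+ it was 0.27, with 2 (0.93%) higher in hrp36 cells. The unplaced regions called lower had a median LacZ RNH- level of 4.73, below that of the other classes. Their median hrp48 minus LacZ difference was 2.26, against 0.13 without a call and -0.23 for those called higher. The call thus picked out regions of low LacZ and high hrp48 level too, so it cannot separate the hrp36 difference from a low LacZ level. On the arms the medians were -0.25 over 41 regions called lower, -0.09 over 883 without a call and -0.26 over 175 called higher.

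The difference also varied with base mean, the authors' mean normalised count of a region over libraries. On the arms the median was -0.34 in the lowest eighth of base mean and stayed between -0.28 and -0.25 up to the fifth. It was 0.26 in the next eighth, then 0.37, and 0.83 in the highest one, where the base mean went from 1908 to 18503. That highest eighth held 45 of the 65 higher arm regions. Of those 65, 39 share level profiles, as described below, and are not counted as independent. On Uextra the median was 0.77 in the lowest eighth, reached 0.93 at a base mean of 56.1 to 65.4, and was 0.18 in the highest eighth, above 876.8. There the median hrp48 minus LacZ difference was 2.19 in the fifth eighth and -0.10 in the sixth. The median LacZ RNH- level was 5.16 and 6.83 in these 2 eighths. Base mean was not separated from the hrp48 excess or the LacZ level. The course on Uextra was not even, with 0.36 in the sixth eighth and 0.57 in the next, and it depended on the table. In the LacZ table the Uextra median was 0.12 in the lowest eighth, 0.67 in the sixth and 0.08 in the highest. In the hrp36 table it was 0.94 in the lowest eighth, 0.30 in the third and 0.36 in the highest. The highest eighth of the arms had the largest median in the other tables too, 0.37 in the LacZ and 0.85 in the hrp36 table. The hrp48 table's RNH+ medians stayed between -0.24 and 0.08 on the arms and between -0.13 and 0.14 on Uextra. The authors' median standard error in the highest eighth was 0.43 on the arms and 0.47 on Uextra.

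**Figure D3:**
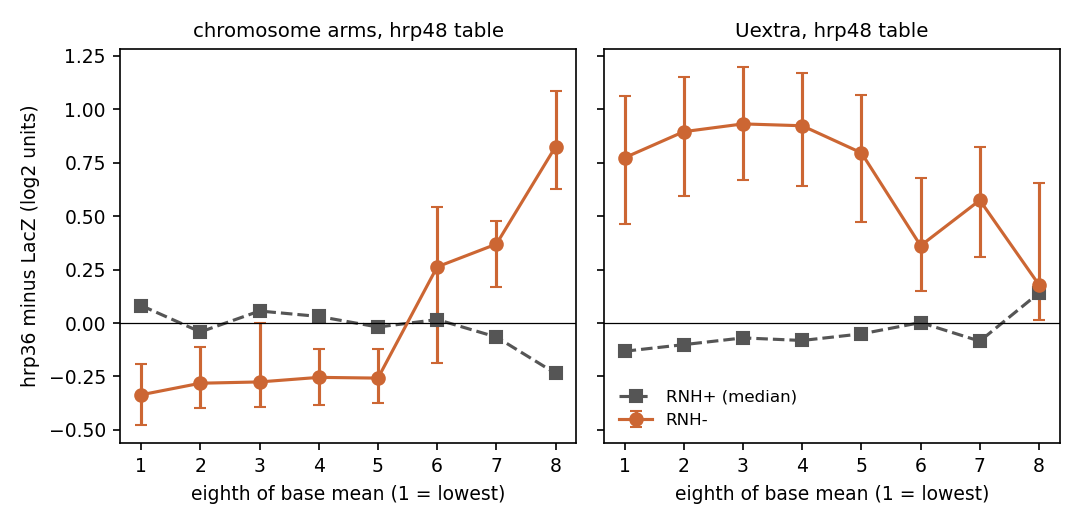
Difference in S9.6 level, hrp36 minus LacZ (y axis, log2 units), by eighths of the base mean (x axis, 1 is the lowest) for the arm regions and the Uextra regions of the hrp48 table. Circles and bars are the RNH- median and quartiles over regions and squares the RNH+ median. On the arms the RNH- median goes from -0.34 to 0.83, and on Uextra it is 0.93 in the third eighth and 0.18 in the last.

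Longer regions had larger differences on the arms, and they were also the deeper ones. Regions were divided into 4 length classes of like size. The shortest class on the arms (180 to 287 bases) had a median of -0.29 and 0 higher regions. The longest (931 to 7501 bases) had a median of 0.54 and 55 of the 65 higher regions. Its base mean was 1711 at the median, that of the shortest class 89.7. On Uextra the median differences by length class, shortest first, were 0.37, 0.69, 0.86 and 0.82, while the median base mean was 148.6, 57.3, 67.6 and 93.0. In the LacZ table the arm medians by length class, shortest first, were -0.34, -0.34, -0.32 and -0.18, all below 0. In the hrp36 table they were 0.25, 0.35, 0.42 and 0.70. Of the 65 higher arm regions of the hrp48 table, 39 share level profiles, as described next, and are not counted as independent. Length and base mean were not separated further.

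The 65 higher arm regions fell into 33 profiles of level over the 6 groups. Of them, 39 fell into 7 sets in which all 6 group levels agreed within 0.2 log2 units between regions on different chromosomes. The largest set had 13 regions of 1130 to 1356 bases on all 5 arms. LacZ cells had an RNH- median of 11.10 there, hrp36 cells 12.33 and hrp48 cells 11.19, and every difference of hrp36 over LacZ lay between 1.21 and 1.26. A set of 8 longer regions, 5166 to 5860 bases and also on all 5 arms, had RNH- medians of 12.86 in LacZ and 14.06 in hrp36 cells. Its RNH+ medians were 12.13 and 11.83. The regions of such a set are not counted here as independent. Whether they are copies of 1 repeat, and how reads that map to several places were treated, was not tested. Of the other 26 regions, 14 lay in stretches described next.

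Some differences on the arms ran over neighbouring regions. Regions less than 50 kb apart that all differed by more than 0.25 formed 5 stretches of at least 8 regions, a rule set after the values were seen, which fixes the sign of every member. The highest was a stretch of 37.1 kb on 2R, from 15616744 to 15653878, with 12 regions that were all higher. Their lowest difference was 1.06, the quartiles were 1.21 and 1.32, and the median was 1.29, or 2.45-fold, and 11 of the 12 exceeded 2 times the authors' standard error. In hrp48 cells all 12 were below LacZ, by a median of -0.29. With RNH+ the median hrp36 minus LacZ difference was 0.01, with values from -0.30 to 0.16. In the region with the largest difference, 15625223 to 15629550, the RNH- levels were 9.43 in LacZ and 10.84 in hrp36 cells, with 9.21 in hrp48 cells. With RNH+ they were 10.65, 10.56 and 9.86. There the LacZ level was lower without RNase H than with it, and the hrp36 level was not. The LacZ table lists 13 regions there, with a median difference of 1.29, and the hrp36 table lists 1 region of 37068 bases, also higher. RefSeq places 100 genes of 5S rRNA, the small RNA of the large ribosomal subunit, on 2R. That annotation belongs to another build, and whether the stretch is their cluster was not tested.

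The longest stretch lay on 2L, from 21418446 to 21539012. It is 121 kb long and, from general knowledge of dm3, holds the tandem histone gene repeats, which supply the core histones and histone H1 in S phase. Its 23 regions, chosen for a difference above 0.25, ran from 0.39 to 1.22 with a median of 0.58, or 1.49-fold. Of these, 6 exceeded 2 times the authors' standard error, and 2 exceeded 1 log2 unit. All 23 were below LacZ in hrp48 cells, by a median of -0.51. The RNH+ median was 0.04. Medians of the levels were 8.57 in LacZ and 9.13 in hrp36 cells with RNH-, and 8.25 and 8.32 with RNH+. The other tables had medians of 0.53 over 41 LacZ regions and 0.54 over 48 hrp36 regions in the same stretch.

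The remaining 3 stretches were smaller in size of difference. They lay at 2L 20155853 to 20209427 (11 regions, median 0.45), 2R 6509968 to 6554119 (10 regions, median 0.38) and X 21558787 to 21575678 (8 regions, median 0.38). None of their regions passed 1 log2 unit. The 2L stretch among them had the highest RNH+ median of the 5, 0.21, and 9 of its 11 regions were above 0 with RNH+.

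**Figure D4:**
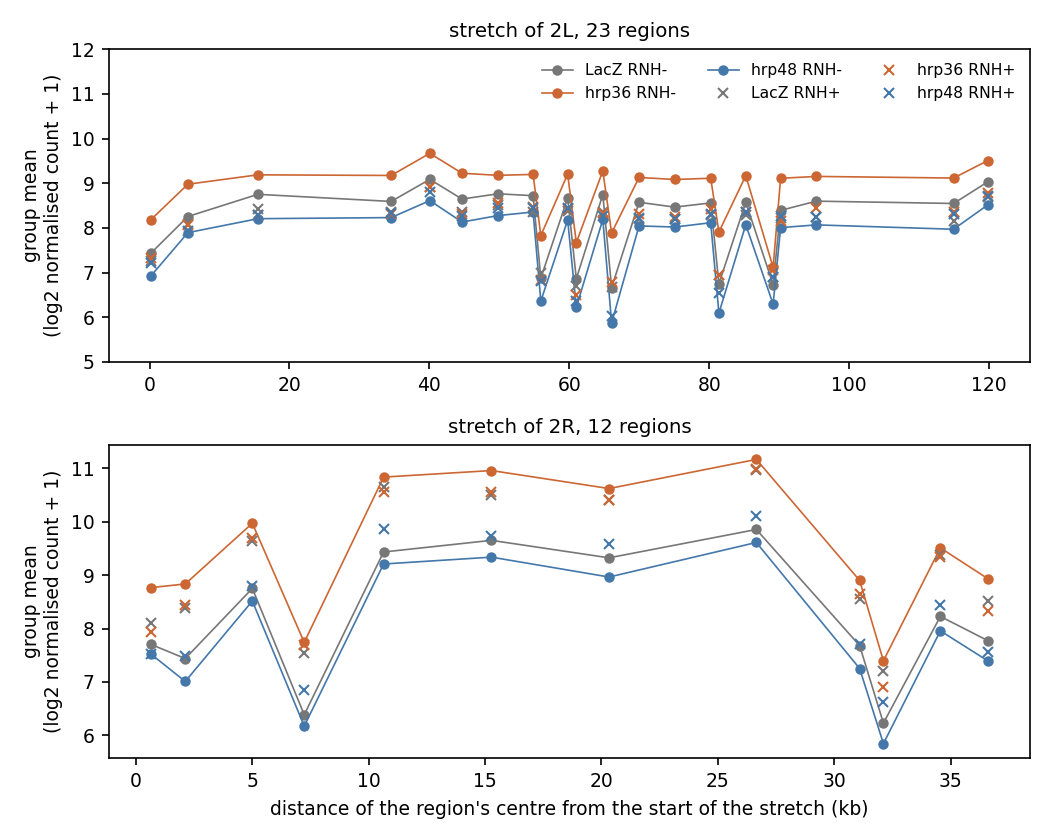
Group means (y axis, log2 of normalised count + 1) along the stretch of 2L with 23 regions and the stretch of 2R with 12, against distance from the start of the stretch in kb (x axis). Joined circles are RNH- means and crosses RNH+ means, in grey for LacZ, orange for hrp36 and blue for hrp48. The orange circles stand above the grey ones by the rule that chose the stretches, and on 2R the grey and orange crosses lie between them.

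Single regions with the largest differences were taken from the deeper part of the hrp48 table, where the base mean was not under its median. On the arms, the region at X 11134601 to 11135013 had a level of 8.08 in LacZ and 9.57 in hrp36 cells, a difference of 1.49 (authors' SE 0.57), and its RNH+ levels were 6.95 and 6.84. The region at 3R 4728395 to 4729163 went from 10.36 to 11.82, a difference of 1.45 (authors' SE 0.50), with 10.44 and 10.19 in RNH+ libraries. In the hrp36 table this place lies in a longer region of 6529 bases, with a difference of 0.99. The next, 2R 15625223 to 15629550, is the one described in the stretch of 37.1 kb. These 3 differences were at least 2.61 times the authors' standard error.

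In mapped heterochromatin the leading region was 3LHet 1735360 to 1735810, at 9.11 in LacZ and 10.58 in hrp36 cells, a difference of 1.48 (authors' SE 0.47). It was 1.48 in the other 2 tables as well, which hold the same libraries. A pair of YHet regions followed, 75636 to 76361 with a difference of 1.46 and 137142 to 137464 with 1.27. The hrp36 table gives 1.04 for the first of them, in a region of 4637 bases, and 1.27 for the other. In hrp48 cells these 3 regions were within 0.08 of LacZ.

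The largest differences of the hrp48 table lay on the unplaced scaffolds, and at its leading regions there the RNH+ difference had the opposite sign. The region at U 1041859 to 1042935 had an RNH- level of 8.56 in LacZ and 11.89 in hrp36 cells, a difference of 3.33, with hrp48 cells at 9.53. Its RNH+ level was 10.11 in LacZ but 8.69 in hrp36 and 8.60 in hrp48 cells. The authors' standard error was 0.61, above the table's median of 0.38. On Uextra the regions at 6806494 to 6806688, 2771302 to 2771515 and 2964661 to 2964979 repeated the pattern, with RNH- differences of 3.06, 3.05 and 2.91 and RNH+ differences of -1.14, -1.01 and -0.94. Their standard errors were 0.60, 0.61 and 0.62. Whether 1 library carries the RNH- level of hrp36 cells at these regions was not tested. The other leading U regions were 8958752 to 8961221, at 1.57, where hrp48 cells also exceeded LacZ by 2.56, and 9376171 to 9376694, at 1.53.

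Lower regions were rarer and differed less. The 1 region past the threshold was 3L 3717028 to 3717305, with an RNH- level of 7.25 in LacZ and 6.24 in hrp36 cells, a difference of -1.02 (authors' SE 0.33). Its RNH+ levels were 6.64 and 6.93, so the sign turned, and the LacZ table gave -1.02 over 495 bases at this place. The next arm regions were 2R 13266512 to 13266856 at -0.74 and 3R 2235973 to 2236261 at -0.65. The leading lower regions of heterochromatin were 3L 24207225 to 24207498 (-0.68), 3RHet 925648 to 925899 (-0.62) and 2RHet 647848 to 648094 (-0.60). On U they were 1923903 to 1924214 (-0.74), 8989618 to 8989891 (-0.65) and 6642920 to 6643322 (-0.59). Those of Uextra began at 17375779 (-0.78), 14083453 (-0.68) and 2495263 (-0.62).

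Mitochondrial DNA, whose transcription and replication are rich in hybrids, had nearly equal levels at its long region. The region from 52 to 15003 had RNH- levels of 17.95 in LacZ and 17.94 in hrp36 cells and RNH+ levels of 16.39 and 16.44. The region from 16036 to 17183 had 12.62 and 12.28 with RNH-, a difference of -0.34 against an authors' standard error of 0.45. With RNH+ it had 10.17 and 10.51, a difference of 0.34. The hrp36 table gave an RNH+ difference of 0.67 at this place.

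A separate kind of region was high in 1 cell group with and without RNase H. All 3 tables were searched for regions where 1 cell group exceeded both others by more than 3 log2 units, with RNH- and with RNH+. This rule was chosen after the values were seen. It found 3 regions, 1 in each table. Each was high in the cell group that its table's identifiers name. A choice of regions on that group favours such a match by itself. In hrp36 cells the region was 3R 9484823 to 9485379, 557 bases long. LacZ cells had an RNH- level of 4.97, hrp36 cells 11.07 and hrp48 cells 4.32, and with RNH+ they had 5.40, 10.19 and 4.90. The difference of hrp36 over LacZ was 6.09 (68.4-fold) with RNH- and 4.79 with RNH+, and the authors' deposited table, made with DESeq2, gives an RNase H fold change of -0.95 there, with an adjusted p of 0.126. RefSeq places Hrb87F, the gene knocked down, on the same arm, but its annotation belongs to another build, and whether the region lies in Hrb87F was not tested.

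In LacZ cells the region was Uextra 11425868 to 11426255, 388 bases long. With RNH- the level was 9.14 in LacZ cells, 2.44 in hrp36 cells and 2.11 in hrp48 cells, and with RNH+ they were 8.57, 4.59 and 4.94. This was the lowest difference of hrp36 over LacZ in any table, -6.69, and the next lowest in the LacZ table was -1.29. In hrp48 cells the region was 2L 6923896 to 6924326, at 9.22 with RNH- and 9.43 with RNH+, while LacZ and hrp36 cells lay between 4.21 and 5.49. RefSeq places Hrb27C, which encodes hrp48, on 2L. At the next region of each table by the same measure the smallest of the 4 differences was 0.83 in the hrp48, 0.76 in the LacZ and 0.76 in the hrp36 table. The 3 regions are 431, 388 and 557 bases long, and the authors' deposited tables call none of them lower with RNH+. What they stem from was not tested.

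**Figure D5:**
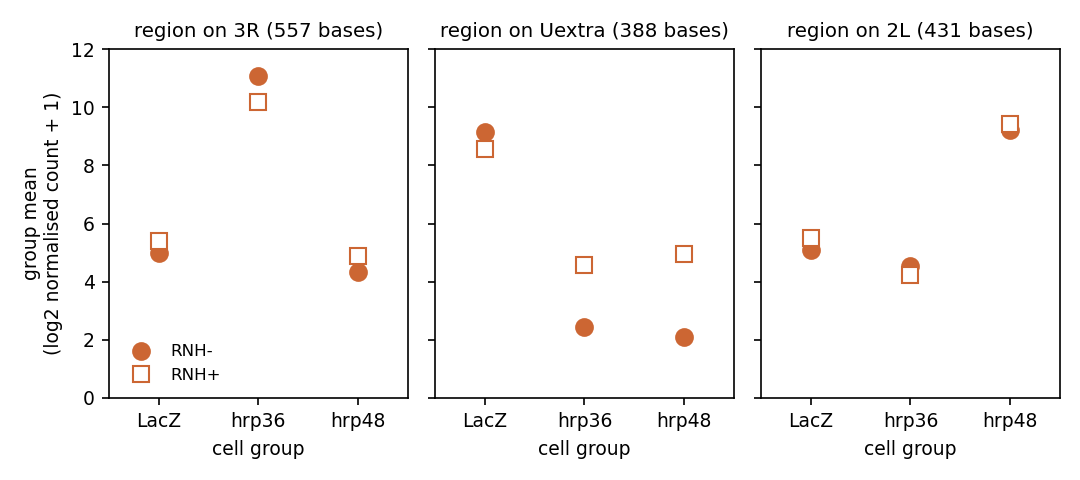
Group means (y axis, log2 of normalised count + 1) of the 3 cell groups (x axis) at the region on 3R, on Uextra and on 2L that is high in 1 cell group, with filled circles for RNH- and open squares for RNH+. In each panel a single cell group stands above both others with both treatments: hrp36 at 11.07 and 10.19, LacZ at 9.14 and 8.57, and hrp48 at 9.22 and 9.43.

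The hrp48 minus LacZ difference in RNH- libraries shares the LacZ libraries and is given only beside the above. Over the hrp48 table its median was 0.45, against 0.60 for hrp36. On the arms it was -0.35 against -0.15, on the Het scaffolds -0.23 against 0.12 and on Uextra 2.02 against 0.71, in a table whose identifiers point to a choice on hrp48 cells. At the 65 higher arm regions the hrp48 difference ran from -0.79 to 0.13 with a median of -0.09. The difference between the 2 knockdowns was not tested, since values per library were not analysed here.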

How the data were processed

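DRIP-seq libraries of S2 cells were processed by the submitters with Bowtie2 2.2.2, MACS 1.4.2 and DESeq2 on dm3, per the submitters' processing notes. The sources used here do not give the role of each tool or the handling of reads with several places. The authors deposited log2 levels, 1 mean per group and region. The back-transformed mean, less a pseudocount of 1, exceeded the base mean at 0 regions, as means of log2(normalised count + 1) would. Base mean is a normalised signal deposited by the authors. The log2 fold change of RNH+ over RNH- in the table's own cell group, its standard error, the Wald score, the p-value, the adjusted p-value and the call score of -1, 0 or 1 were deposited by the authors. At regions with a response over 1, the difference of levels, RNH+ minus RNH-, was divided by the Wald score and by that standard error. The ratios had medians of 1.07 to 1.12. Wald score times standard error over log2 fold change had medians of 0.99 to 1.00. These ratios do not settle whether that standard error is shrunken, since a difference of mean log2 levels is not the fold change of DESeq2.

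From the levels, hrp36 minus LacZ was computed per region, as a description with no test, and summarised by table, place, base mean and length. Borders of the pericentromeric parts are 22 Mb on 2L, 1.3 Mb on 2R, 23 Mb on 3L, 0.4 Mb on 3R and 22 Mb on X, from general knowledge. Overlap means at least 1 base (bedtools 2.31.1). Regions are named by position: in each of 4 classes, the 3 largest differences each way among regions whose base mean is not under the median, plus mitochondrial regions. Counting was tested on simulated data. Members, classes and rules were chosen with earlier results of these data known. Alternatives were the other tables, a base mean filter, a pseudocount of 10, centring, removal of U and Uextra, a length of at least 500 bases and other thresholds. The 6 input libraries were not analysed here. Scripts ran in Python 3.11.15 (SciPy 1.17.1, pandas 2.3.3, NumPy 2.4.6), and figures were drawn with Matplotlib 3.10.9.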

Additional observations from a re-analysis of the deposited data

How the results depend on the processing

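The median difference of 0.60 changed sign with the regions of the LacZ table (-0.14) and without U and Uextra (-0.10), and moved by less than the authors' median standard error of 0.38 under the other alternatives. The 1814 higher regions became 264 in the LacZ table and 464 in the hrp36 table, 473 with a base mean not under the median, 932 with a pseudocount of 10 and 79 without U and Uextra. They became 4333 at a threshold of 0.5, 2973 at 2 standard errors and 255 among regions also listed in both other tables, an alternative chosen after seeing the data. Centring on the arm median gave 2535. Fewer regions enter under all of these but the pseudocount, the thresholds and the centring. The 1 lower region became 7 in the LacZ table, 119 at a threshold of 0.5 and 16 at 2 standard errors. It became 0 in the hrp36 table, with a pseudocount of 10, with centring on the arm median, with regions of at least 500 bases, and among regions listed in both or in neither of the other tables. The arm median of -0.15 turned to 0.40 in the hrp36 table and to 0.36 with regions of at least 500 bases, and the Uextra median of 0.71 fell to 0.27 in the LacZ table. Why region choice and length turn the arm median was not tested beyond the values by base mean. The pseudocount lowers the differences of low regions by construction. No paired analysis was possible because the tables hold 1 mean per group, and leaving out single replicates was not possible for the same reason. Depth per library is unknown, so no interval of counting error can be given.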
